A study of Mus musculus with 12 samples.

Results

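The BCL2 family decides whether the outer membrane of the mitochondrion stays sealed or is opened during apoptosis. The 10 genes described here were taken by name from the gene table: the survival genes Bcl2, Bcl2l1 (BCL-XL) and Mcl1, the pore-forming effectors Bax, Bak1 and Bok, and the BH3-only genes Bid, Bad, Bcl2l11 (BIM) and Bbc3 (PUMA). All 10 were found among 23997 rows. Of these, 8 had at least 1 FPKM (fragments per kilobase of transcript and fixed number of mapped fragments, a level per transcript length) in at least 3 of 12 libraries and were tested, with Bak1 and Bbc3 left out of the tests for low values. As background, survival proteins hold the effectors in check by binding them. BH3-only proteins respond to damage or loss of growth signals and either occupy the survival proteins or switch the effectors on, and the opened membrane lets cytochrome c reach the apoptosome and its caspases. In the ovary this pathway removes granulosa cells when follicles become atretic.

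RNA came from cumulus cells, the granulosa-derived cells around the oocyte, of female C57BL/6J mice in 4 groups of 3 libraries. WT 3-month and WT 6-month females were wild type, and KO 3-month and KO 6-month females were ClpP knockouts (ClpP-/-), lacking the proteolytic subunit of a mitochondrial matrix protease. The labels do not describe how the allele was made. Every female, controls included, was primed with 5 IU of pregnant mare serum gonadotropin, and each library holds 100 cells of 1 mouse. The interval to collection is 44 h in the treatment protocol and 48 h in the series text. The title of the series names reproductive ageing, and the comparisons ask how member transcripts differ with genotype and with age.

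Library depth, read from the spacing of low values, spanned 0.641 to 1 of the deepest library, and 9335 to 10861 genes per library reached 1 FPKM. Clpp averaged 121 and 122 FPKM in the WT groups and 3.27 and 2.91 in the KO groups, with every KO library below every WT library. Inha, the inhibin subunit gene typical of granulosa cells, lay between 2419 and 6334 FPKM, and none of the 10 cumulus and granulosa markers was at 0 in any library. Markers of other cells were uneven. In KO library 3, the summed level of 8 theca and stromal markers was 1197 FPKM at 3 months and 1467 at 6 months. In WT library 3 it was 152 and 109 at those ages, and the other 8 libraries held 0.443 to 60.2. The sum of 8 blood and leukocyte markers was 697 to 1501 FPKM in the 4 libraries numbered 3 and 0.854 to 35.8 in the other 8. The 8 oocyte markers also summed highest in KO library 3, to 40.9 FPKM at 3 months and 189 at 6 months, against 0.26 to 9.3 elsewhere. Endothelial markers (6 genes) summed to 4.18 to 25.7 FPKM and surface epithelium markers (6 genes) to 20.6 to 249.3. Single genes can hold such a sum. In 3-month WT library 2 the highest surface epithelium sum came from Krt8 (197 FPKM) and Krt18 (52.25), with the other 4 genes at 0. The lowest endothelial sum, in the same library, came from Egfl7 (4.18), with the other 5 at 0. By list, 0 to 3 of the theca and stromal, 0 to 5 of the blood and leukocyte, 0 to 5 of the endothelial, 0 to 6 of the oocyte and 0 to 4 of the surface epithelium markers were at 0 in a library. Small RNAs took 32.0% and 37.5% of all FPKM in KO library 3 at 3 and 6 months and 25.7% in WT library 1 at 3 months, against at most 6.82% elsewhere.

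The effectors Bax and Bok were the most abundant members and the damage sensor gene Bbc3 the least. Over 12 libraries Bax averaged 107 FPKM, higher than 90.1% of tested genes, and Bok 90.8. The BH3-only gene Bad followed with 41.4 and the survival gene Mcl1 with 34.8. Bid averaged 9.28, Bcl2l1 3.52, Bcl2l11 2.75 and Bcl2 2.18. Bak1, with 0.70, and Bbc3, with 0.479, lay under 1 FPKM. Bax therefore stood far above Bak1, its close relative in pore formation, in every library. Mcl1 exceeded Bid, and Bid exceeded Bcl2l1, in 12 of 12 libraries. Bax exceeded Bok, Bok exceeded Bad, Bad exceeded Mcl1, Bcl2l11 exceeded Bcl2 and Bcl2 exceeded Bak1 in 10 of 12. Neighbours least apart were Bcl2l1 over Bcl2l11, with 7 of 12 libraries, and Bak1 over Bbc3, with 8 of 12. These levels are per transcript length and sum the isoforms of a gene, so the long and short products of Bcl2l1 or Mcl1 are not told apart.

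**Figure D1:**
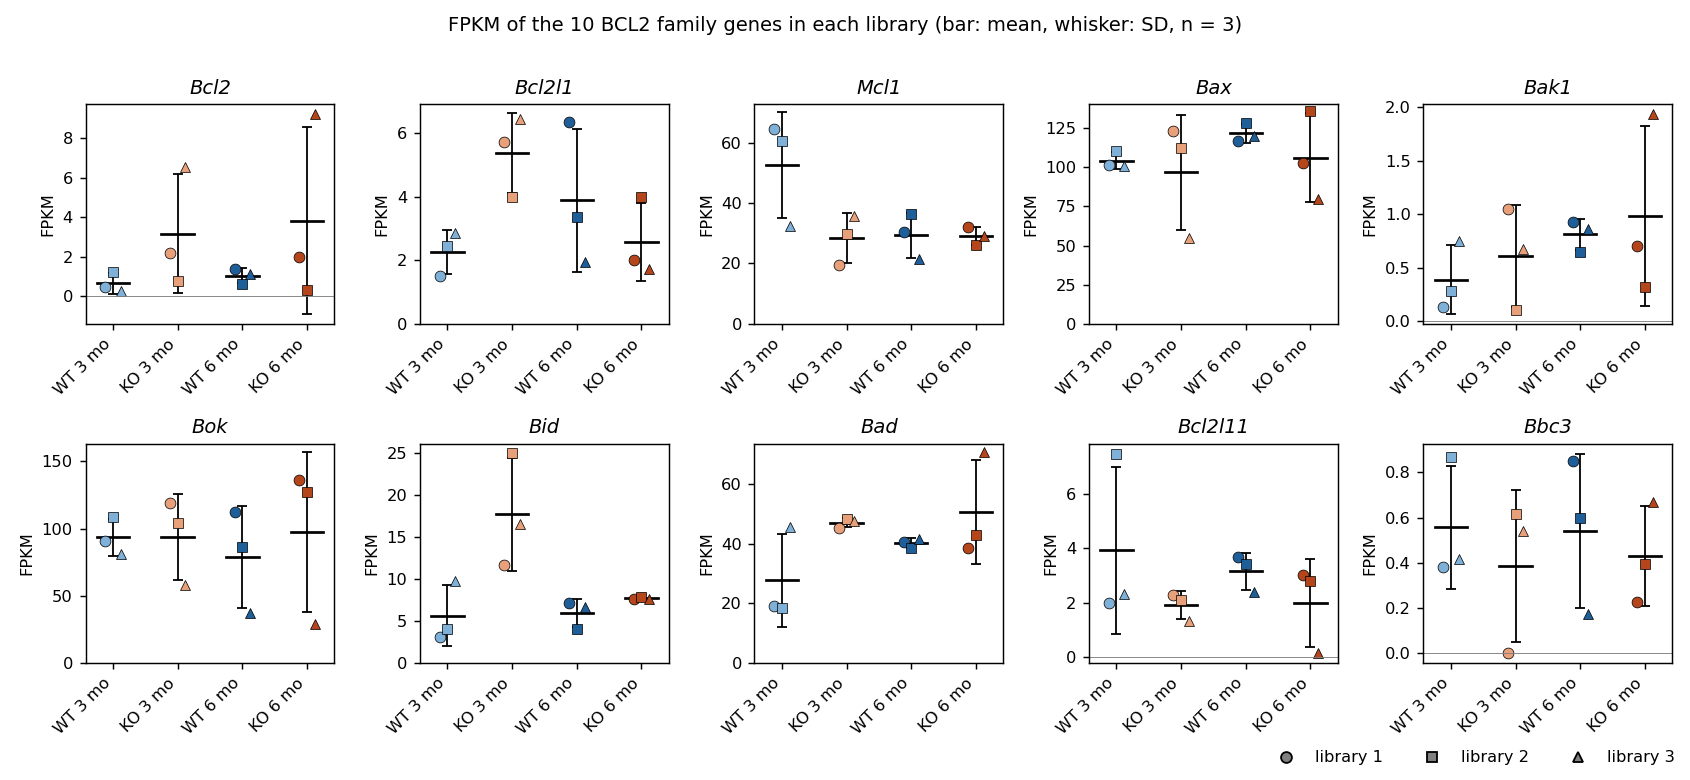
FPKM (vertical axes, each with its own range) of the 10 members in each library by group (horizontal axes), with symbols for library number, bars for group means and whiskers for the SD, n = 3. Bid lies at 11.7 FPKM or above in the 3-month KO libraries and at 9.82 or below in the other 9, and Bok is lowest in library 3 of every group.

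Among the 8 tested members, the BH3-only gene Bid had the largest log2 difference between 3-month KO and WT cells. Its mean FPKM was 3.14-fold higher in KO, and that of Bcl2, which was high in KO library 3, was 4.845-fold higher. No member passed the test in this or any other comparison. At 3 months 0 of 8 members had an adjusted p under 0.05 in limma, where 0.00893% of all 11196 genes did. At an unadjusted p under 0.05 there were 4 of 8, with Bid, Bad and Bcl2l1 higher and Mcl1 lower in KO, against 6.8% of all genes. Only Bid and Bcl2l1 had values that did not overlap between genotypes, 2 of 8 against 10.2% of all genes. The median log2 difference of the 8 was 0.41, with 4 above and 4 below 0, and that of all genes was 0.012. At 6 months 0 of 8 members were called (0.0268% of all genes), 0 of 8 had an unadjusted p under 0.05 (1.22%), and 1 of 8, Bid, did not overlap (6.8%). The median of the members was then 0.086 and that of all genes 0.014. Averaged over both ages, 0 of 8 were called (0.0179% of all genes), and Bid and Bad had an unadjusted p under 0.05 (2 of 8 against 5.96%). The difference of the KO effect between ages gave 0 of 8 calls (0.00893%) and 1 of 8, Bcl2l1, at an unadjusted p under 0.05 (2% of all genes).

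Leaving out libraries high in markers of other cells changed none of these counts of member calls, which stayed at 0. Without KO library 3 of both ages and WT library 3 of 6 months, 3 of 8 members had an unadjusted p under 0.05 at 3 months, against 13.5% of all genes. This fit kept 3-month WT library 3, although its theca and stromal sum (152 FPKM) exceeded that of the 6-month WT library left out (109). At 3 months it thus removed a library high in such markers from KO only. Library 3 of all 4 groups was then left out, a choice made after the data were seen that leaves 2 libraries against 2. Again 3 of 8 members had an unadjusted p under 0.05 at 3 months, against 18.9% of all genes. Of all 11196 genes, 1 was called at 3 months without the 3 libraries and 45 without all 4, against 1 in the main fit. The 3 members under an unadjusted p of 0.05 were Bid, Bad and Mcl1 both times. Without all 4, their log2(FPKM + 1) differences were 2.00 for Bid (limma adjusted p = 0.084), 1.27 for Bad (adjusted p = 0.0512) and -1.34 for Mcl1 (adjusted p = 0.0746). Over every alternative tried, the adjusted p of Bad ran from 0.0512 to 1 and that of Mcl1 from 0.0746 to 1. Members whose genotypes did not overlap at 3 months numbered 4 without the 3 libraries (25.4% of all genes) and 5 without all 4 (40.5%). At 6 months 0 of 8 had an unadjusted p under 0.05 both times (0.965% and 1.35% of all genes), and 3 of 8 did not overlap (34.6%). For the difference of the KO effect between ages there was 1 of 8 without the 3 libraries (4.49%). Without all 4 there were 4 of 8, namely Bid, Bad, Bcl2l1 and Mcl1, against 8.26% of all genes, none of them called (adjusted p 0.38 to 0.573).

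**Figure D2:**
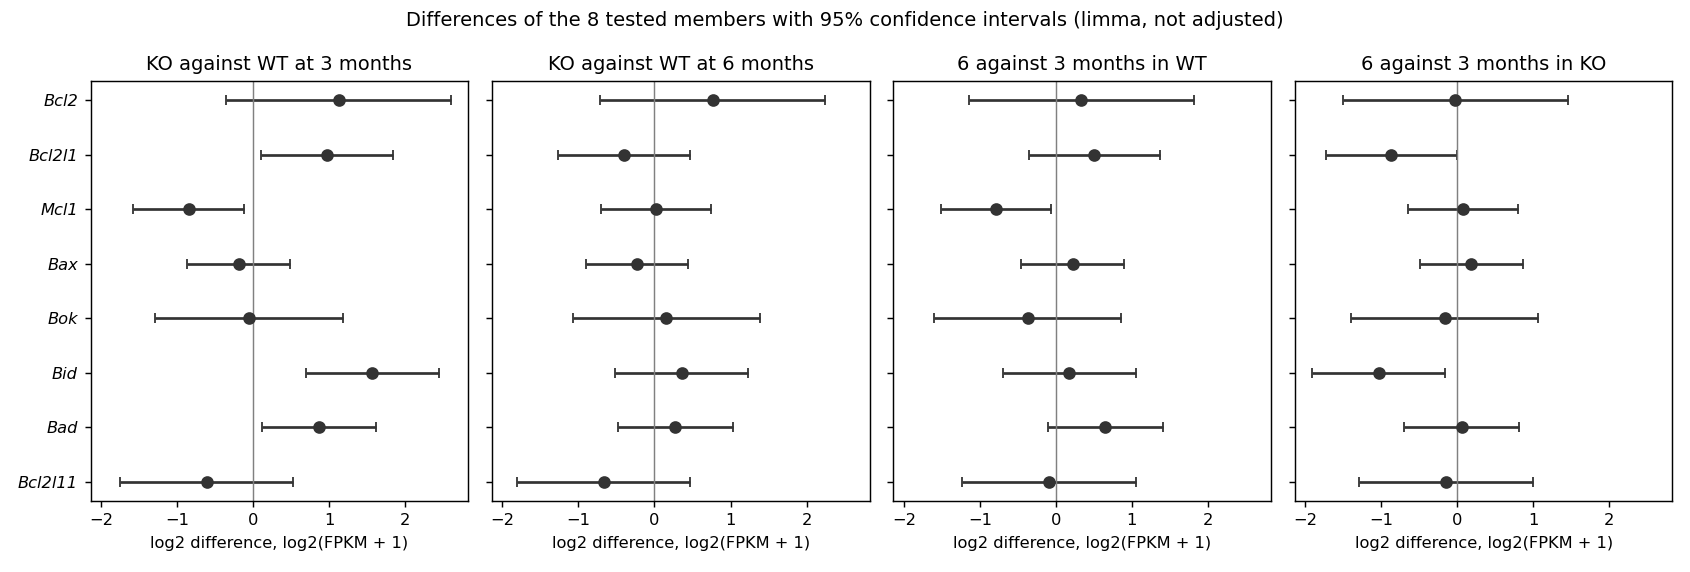
Difference in log2(FPKM + 1) (horizontal axes) of each tested member in 4 comparisons, with points for the limma estimate and bars for its 95% confidence interval, not adjusted for the number of genes. At 3 months the intervals of Bid, Bad and Bcl2l1 lie above 0 and that of Mcl1 below 0, and at 6 months all 8 intervals include 0.

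The promoters of Mcl1 and Bid are shown because these 2 genes of opposing role had unadjusted p-values under 0.05 in opposite directions at 3 months. Sequences are from RefSeq on GRCm38.p6, where all 10 members have an entry, 16 windows in all, and each is printed 5′ to 3′ on the strand of its gene and kept outside annotated exons. Capitals mark matches to the motifs searched on both strands. These were the GC box GGGCGG, the CCAAT box, the E-box CACGTG, the AP-1 motif TGANTCA, the cyclic AMP response element TGACGTCA, the ATF4 element TGATGNAA and the ETS motif CCGGAAG.
Mcl1, chr3:95658471-95658720, plus strand: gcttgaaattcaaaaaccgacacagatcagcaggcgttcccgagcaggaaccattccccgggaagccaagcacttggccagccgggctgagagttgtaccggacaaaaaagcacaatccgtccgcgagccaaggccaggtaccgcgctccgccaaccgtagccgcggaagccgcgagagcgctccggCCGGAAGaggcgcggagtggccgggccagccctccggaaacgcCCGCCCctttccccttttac
Bid, chr6:120916854-120917074, minus strand: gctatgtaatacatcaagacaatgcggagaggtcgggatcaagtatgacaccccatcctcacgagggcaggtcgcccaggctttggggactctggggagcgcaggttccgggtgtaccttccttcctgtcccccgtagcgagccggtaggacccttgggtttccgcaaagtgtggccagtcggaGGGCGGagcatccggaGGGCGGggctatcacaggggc
The stretch of Mcl1 holds 1 GC box, in its reverse complement, and 1 ETS motif, and that of Bid, cut to 221 bases, holds 2 GC boxes, against 3 in its full window of 250 bases. No CCAAT, E-box, AP-1, cyclic AMP or ATF4 letters occur in either stretch. Over the 250 bases before each of 32851 RefSeq starts, a GC box occurs in 32.7%, CCAAT in 33.9%, the E-box in 6.02%, AP-1 in 6.75%, the cyclic AMP element in 1.55%, the ATF4 element in 3.45% and ETS in 6.91%. In at least 1 of its windows a GC box was found for 8 of 10 members, all but Bcl2l1 and Bak1. That count is per gene, over up to 3 windows each, so it cannot be set against the 32.7% of single windows. The 16 member windows also held 47.6% to 81.6% G and C, against a median of 52.4% for all windows. These matches describe letters in a window, not bound sites.

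Among the survival genes, Mcl1 (chromosome 3, 95658788 to 95663176, plus strand, GRCm38, GENCODE M21) was the most abundant, and its 2 highest values belonged to 3-month WT mice. MCL1 is a short-lived protein that binds BAK and BIM. The 3-month WT libraries 1, 2 and 3 held 64.6, 60.7 and 32.4 FPKM of Mcl1 (mean 52.6 ± 17.6, SD, n = 3). The 3-month KO libraries held 19.5, 29.9 and 35.7 (28.4 ± 8.19, n = 3). WT libraries 1 and 2 thus lay above every other library, and WT library 3 lay inside the KO range. The difference in log2(FPKM + 1) was -0.85 (SE 0.33, 95% confidence interval -1.57 to -0.12, limma adjusted p = 0.711). At 6 months Mcl1 measured 30.3, 36.3 and 21.4 FPKM for WT (29.3 ± 7.54, n = 3) and 32.0, 26.1 and 29.2 for KO (29.1 ± 2.93, n = 3). KO values lay within the WT range there, with a difference of 0.017 (95% confidence interval -0.71 to 0.74, and -0.017 after rescaling without small RNA). The genotype effect was 0.86 higher at 6 than at 3 months (SE 0.47, limma adjusted p = 1).

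Bcl2l1 (chromosome 2, 152780668 to 152831728, minus strand), whose main product BCL-XL guards the outer membrane, was low but higher in all 3-month KO libraries than in 3-month WT. Its FPKM was 1.49, 2.44 and 2.84 in 3-month WT libraries (2.26 ± 0.694, n = 3) and 5.72, 3.99 and 6.43 in 3-month KO (5.38 ± 1.26, n = 3). The genotypes did not overlap, and the log2 difference was 0.97 (SE 0.40, limma adjusted p = 0.715). At 6 months the WT libraries held 6.34, 3.34 and 1.95 FPKM of Bcl2l1 (3.88 ± 2.25, n = 3), and the KO libraries 2.02, 3.98 and 1.73 (2.58 ± 1.23, n = 3). Groups overlapped there, and 6-month WT library 1 lay inside the 3-month KO range. The genotype effect differed between ages by -1.37 (SE 0.56, 95% confidence interval -2.59 to -0.15, limma adjusted p = 1).

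Bcl2 (chromosome 1, 106538178 to 106714274, minus strand), the founding member of the family, was high in 2 libraries only. KO library 3 held 6.56 FPKM at 3 months and 9.22 at 6 months, and the other 10 libraries held 0.261 to 2.18. Those 2 libraries are the ones with the highest sums of theca and stromal markers, and the part of those markers in the Bcl2 level was not tested. In libraries of pooled cells, fewer cells of a type and less RNA per cell cannot be told apart. Mean FPKM of Bcl2 at 3 months was 0.655 ± 0.512 for WT and 3.18 ± 3.01 for KO, and at 6 months 1.05 ± 0.392 and 3.84 ± 4.73 (SD, n = 3). Its log2 differences were 1.12 (limma adjusted p = 0.779) and 0.77 (adjusted p = 1). Without the KO library 3 of the age concerned, they were 0.57 and -0.019.

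The effector Bax (chromosome 7, 45461697 to 45466898, minus strand), which forms the pore once activated, lay between 101 and 136 FPKM in 10 of 12 libraries. In 3-month WT it stood at 102, 110.3 and 101 FPKM (104 ± 5.26, n = 3), and in 3-month KO at 123, 113 and 54.6 (96.8 ± 36.9, n = 3). In 6-month WT it stood at 117, 128 and 120.0 FPKM (122 ± 5.78, n = 3), and in 6-month KO at 103, 136 and 79.7 (106 ± 28.4, n = 3). KO library 3 was the lowest at each age, and the other 2 KO libraries at 3 months lay above every 3-month WT library. The log2 difference at 3 months was -0.19 (SE 0.31, limma adjusted p = 0.916), and 0.17 without KO library 3. At 6 months it was -0.23 (limma adjusted p = 1), and -0.039 without KO library 3 or -0.42 without KO library 2.

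Bok (chromosome 1, 93685660 to 93695764, plus strand) encodes an effector that is abundant in reproductive tissues, and it varied more by library than by group. Its FPKM was 91.2, 108 and 81.0 in 3-month WT (93.5 ± 13.8, n = 3) and 119, 104 and 57.7 in 3-month KO (93.7 ± 32.0, n = 3). At 6 months it was 112, 86.5 and 37.3 in WT (78.7 ± 38.1, n = 3) and 136, 127 and 29.0 in KO (97.3 ± 59.4, n = 3). Library 3 was the lowest of its group in all 4 groups, and each of those 4 libraries was also the highest of its group in blood and leukocyte markers. The part of those markers in the Bok level was not tested. Genotypes differed by -0.051 at 3 months (limma 95% confidence interval -1.28 to 1.18), and by 0.088 after rescaling without small RNA. At 6 months they differed by 0.16, again within the spread of the libraries.

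Bak1 (chromosome 17, 27019810 to 27029009, minus strand), the second classical pore-forming gene, reached 1 FPKM in 2 libraries, with 1.04 in KO library 1 at 3 months and 1.93 in KO library 3 at 6 months. The other 10 lay between 0.107 and 0.927. Group means were 0.39 ± 0.319 FPKM in 3-month WT, 0.61 ± 0.472 in 3-month KO, 0.814 ± 0.145 in 6-month WT and 0.986 ± 0.839 in 6-month KO (SD, n = 3). All comparisons overlapped, and exact two-sided permutation tests gave p = 0.7 for genotype at 3 months and p = 0.9 at 6 months, where 0.1 is the smallest possible. No limit of detection was estimated at these low levels, so no difference and one too small to see cannot be told apart. Bak1 also shares 437 exonic bases with Ggnbp1 on the opposite strand, which averaged 1.55 FPKM, and the part of these bases in its level was not tested.

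**Figure D3:**
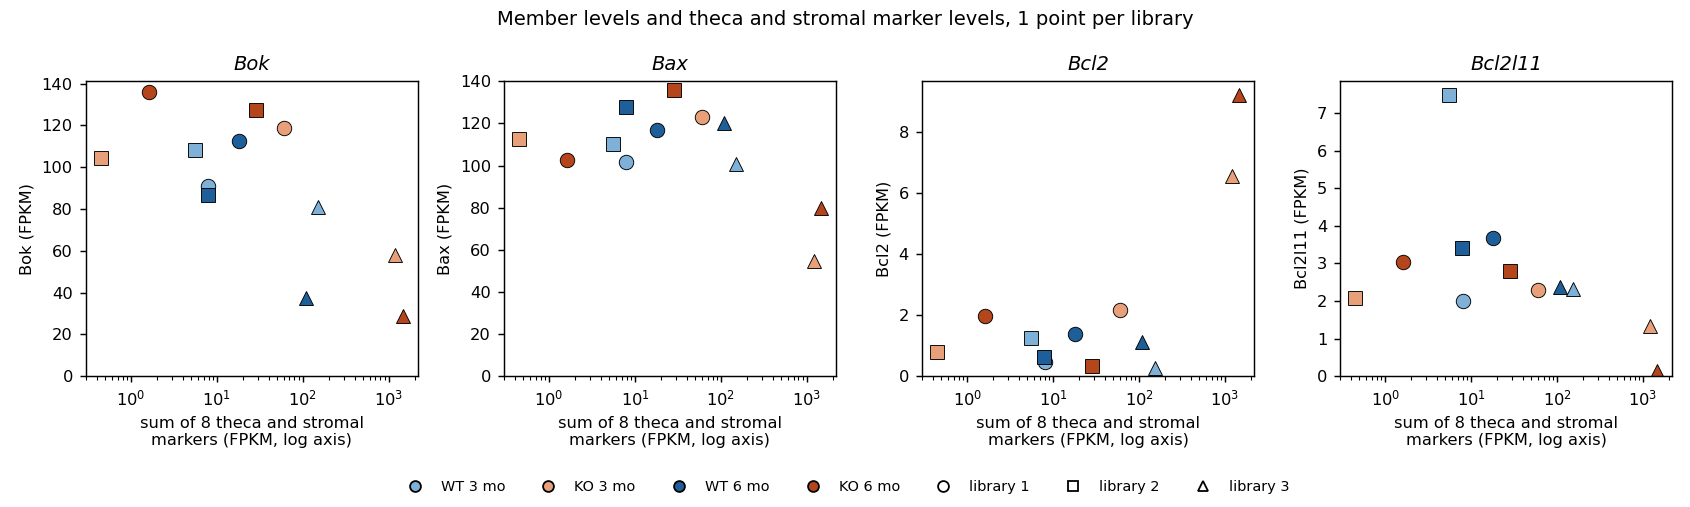
FPKM of Bok, Bax, Bcl2 and Bcl2l11 (vertical axes) against the summed FPKM of 8 theca and stromal markers (horizontal log axes), with 1 point per library, colours for groups and symbols for library number. At marker sums of 1197 and 1467 FPKM, Bcl2 stands at 6.56 and 9.22 FPKM and Bax at 54.6 and 79.7.

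Bid (chromosome 6, 120891930 to 120916853, minus strand), whose protein is cut by caspase-8 and then carries the death receptor signal to mitochondria, was highest in 3-month KO cells. The 3-month WT libraries held 3.06, 4.05 and 9.82 FPKM of Bid (5.64 ± 3.65, n = 3), and the 3-month KO libraries 11.7, 24.98 and 16.5 (17.7 ± 6.73, n = 3). All 3 KO values lay above the other 9 libraries of the study. The log2 difference was 1.57 (SE 0.40, 95% confidence interval 0.69 to 2.44, limma adjusted p = 0.628), rank 36 by p among 11196 genes. The exact two-sided permutation test gave p = 0.1, the smallest that 3 against 3 allow. Over the alternatives tried the difference ran from 1.28 to 2.00 and the adjusted p from 0.084 to 1. Without WT library 3, the 3-month WT library highest in Bid and in theca, blood and oocyte markers, it was 1.99 (adjusted p = 0.0859).

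The WT values of Bid at 6 months were 7.15, 4.10 and 6.68 FPKM (5.98 ± 1.64, n = 3), and the KO values 7.69, 7.92 and 7.67 (7.76 ± 0.14, n = 3). The groups did not overlap, but their nearest values were 7.15 and 7.67 FPKM, and the log2 difference was 0.36 (95% confidence interval -0.52 to 1.23, limma adjusted p = 1). It was 0.15 without WT library 2 and 0.66 with array weights (limma adjusted p = 0.364, and 0.364 to 1 over the alternatives). The genotype effect was 1.21 lower at 6 than at 3 months as a point estimate (log2 difference of effects -1.21, SE 0.57, limma adjusted p = 1). Averaged over both ages Bid differed by 0.96 (SE 0.28, limma adjusted p = 0.783). Bid shares 628 exonic bases with Bcl2l13 on the opposite strand, and the library kit is not described as stranded, so reads there cannot be assigned. Bcl2l13, which encodes a mitochondrial relative of the family, stood at 8.96, 6.69 and 3.05 FPKM in 3-month WT and 1.68, 3.43 and 4.11 in 3-month KO. The part of the shared bases in either level was not tested.

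Bad (chromosome 19, 6941861 to 6951899, plus strand), whose protein binds BCL-XL unless phosphorylated by survival kinases, was low in the same 2 WT libraries in which Mcl1 was high. The WT values at 3 months were 19.0, 18.5 and 45.7 FPKM (27.7 ± 15.6, n = 3), and the KO values 45.2, 48.4 and 47.5 (47.1 ± 1.63, n = 3). WT library 3 lay inside the KO range. The log2 difference was 0.87 (SE 0.35, 95% confidence interval 0.11 to 1.62, limma adjusted p = 0.711). At 6 months the WT libraries held 40.5, 38.6 and 41.7 FPKM (40.3 ± 1.58, n = 3) and the KO libraries 38.5, 42.9 and 70.5 (50.7 ± 17.4, n = 3), overlapping apart from KO library 3. The difference there was 0.27 (limma adjusted p = 1), and 0.014 without KO library 3. Over both ages it was 0.57 (SE 0.25, limma adjusted p = 0.783). Bad shares 524 exonic bases with Gpr137 on the opposite strand, which averaged 2.33 FPKM. Bcl2 shares 558 with D630008O14Rik on the opposite strand and Bax 192 with Gm45808 on its own strand, neither listed with an FPKM value. The part of these bases in the levels was not tested.

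Bcl2l11 (chromosome 2, 128126038 to 128162547, plus strand) encodes BIM, a direct activator of BAX that FOXO factors switch on. It stood at 2.00, 7.49 and 2.31 FPKM in 3-month WT (3.93 ± 3.08, n = 3) and at 2.30, 2.09 and 1.33 in 3-month KO (1.91 ± 0.507, n = 3). In 6-month WT it was 3.69, 3.41 and 2.38 (3.16 ± 0.688, n = 3), and in 6-month KO 3.03, 2.79 and 0.14 (1.99 ± 1.60, n = 3). KO means were lower at both ages, but the groups overlapped and the log2 differences, -0.61 and -0.67, had limma adjusted p-values of 0.832 and 1. Without WT library 2 the difference at 3 months was -0.13, and without KO library 3 that at 6 months was -0.076.

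Bbc3 (chromosome 7, 16308393 to 16318205, plus strand) encodes PUMA, the BH3-only protein that p53 induces. It stayed under 1 FPKM in all 12 libraries, from a listed 0 in 3-month KO library 1 to 0.87 in 3-month WT library 2. Group means were 0.556 ± 0.273, 0.387 ± 0.337, 0.542 ± 0.341 and 0.43 ± 0.222 FPKM in 3-month WT, 3-month KO, 6-month WT and 6-month KO (SD, n = 3). All comparisons overlapped.

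Relative to the BH3-only gene Bid, the survival gene Mcl1 was lowest in 3-month KO cells. Mcl1 was 21.1, 15.0 and 3.30 times Bid in 3-month WT libraries and 1.67, 1.195 and 2.16 times Bid in 3-month KO. At 6 months it was 4.24, 8.86 and 3.20 times Bid in WT and 4.16, 3.30 and 3.81 times in KO. Every 3-month KO library thus lay below every other library, and the 2 highest ratios belonged to 3-month WT libraries 1 and 2. The ratio combines values already given and has no separate test. Both genes were singled out above for opposite directions at 3 months, so a low 3-month KO ratio follows from that choice. The summed level of the survival genes Bcl2, Bcl2l1 and Mcl1 overlapped between genotypes at that age. This sum was 66.6, 64.4 and 35.5 FPKM for 3-month WT libraries, against 27.4, 34.6 and 48.7 for 3-month KO libraries. Bcl2l1 alone was higher in every 3-month KO than 3-month WT library. Across libraries, Mcl1 and Bad had the strongest correlation between 2 members (Pearson r -0.78 on log2(FPKM + 1), 12 libraries), a description in which the 2 WT libraries stand apart and all values share a library scale. The log2 ratio of Bax to Bcl2, each taken as FPKM + 1, was 2.88 and 2.98 in KO library 3 at 3 and 6 months. It was 5.13 to 6.68 in the other 10 libraries. The added 1 lowers this ratio most where Bcl2 is low, so it is not a ratio of plain FPKM like that of Mcl1 to Bid.

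**Figure D4:**
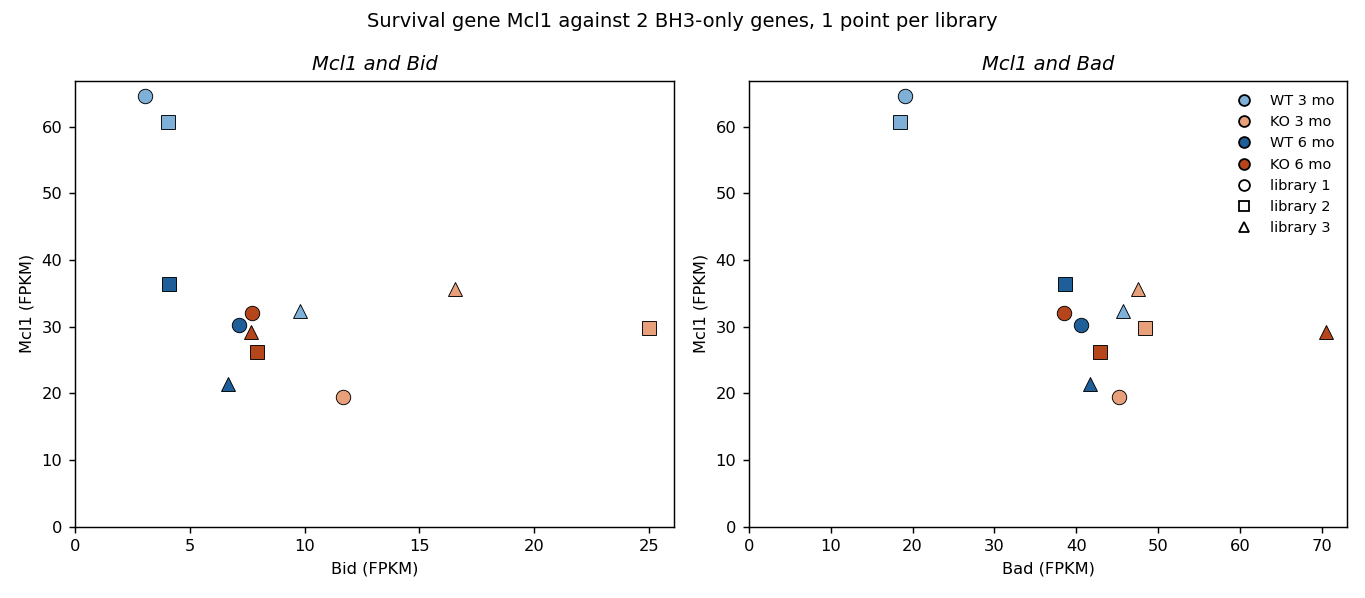
FPKM of the survival gene Mcl1 (vertical axes) against the BH3-only genes Bid (left) and Bad (right), with 1 point per library, colours for groups and symbols for library number. Libraries 1 and 2 of 3-month WT stand at 64.6 and 60.7 FPKM of Mcl1 with Bid at 3.06 and 4.05 and Bad at 19.0 and 18.5, and the 3-month KO libraries stand at 11.7 to 24.98 FPKM of Bid.

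With age, the survival gene Mcl1 averaged 52.6 FPKM at 3 and 29.3 at 6 months in WT, while in KO it averaged 28.4 and 29.1. These comparisons use the same libraries as those between genotypes. In WT 0 of 8 members were called in limma (0.00893% of all genes), 1 of 8, Mcl1, had an unadjusted p under 0.05 (7.44%), and 1 of 8, Bax, did not overlap (15.7%). Mcl1 differed by -0.79 (SE 0.33, 95% confidence interval -1.52 to -0.064, limma adjusted p = 0.664). Bax was higher in every 6-month than 3-month WT library, at 117 to 128 against 101 to 110.3 FPKM, a log2 difference of 0.22 (limma adjusted p = 0.902). Bad differed by 0.65 (SE 0.35, limma adjusted p = 0.689). Without library 3 of all 4 groups, 2 of 8 members, Mcl1 and Bad, had an unadjusted p under 0.05 (17.7% of all genes), and 0 of 8 without the 3 libraries (11.5%). In the fit without library 3 of all 4 groups, 39 of all genes were called, and 0 of 8 members. Both the Mcl1 and the Bad difference rest on 3-month WT libraries 1 and 2, since library 3 lay at 32.4 and 45.7 FPKM, close to the 6-month values.

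In KO cells Bid averaged 17.7 FPKM at 3 months and 7.76 at 6 months, and Bcl2l1 5.38 and 2.58. Of 8 members 0 were called in limma (0.0179% of all genes). Both Bid and Bcl2l1 had an unadjusted p under 0.05, 2 of 8 against 6.48% of all genes. Both were also the only members that did not overlap, 2 of 8 against 12.8%. The log2 difference was -1.04 for Bid (SE 0.40, 95% confidence interval -1.91 to -0.16, limma adjusted p = 0.745). For Bcl2l1 it was -0.87 (SE 0.40, limma adjusted p = 0.745). Every 6-month KO library lay at 7.67 to 7.92 FPKM of Bid, against 11.7 to 24.98 at 3 months. The other 6 members differed by -0.17 to 0.18. Without the 3 libraries 0 of 8 had an unadjusted p under 0.05 (11.7% of all genes), and without library 3 of all 4 groups 1 of 8, Bid (13.6%). Both times 5 of 8 did not overlap (48.4%).

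Other genes of the pathway also gave no calls: 0 of 53 tested genes on 6 lists had an adjusted p under 0.05 in any of 6 comparisons. Of all genes, 0.00893% to 0.0268% were called per comparison, so 0 of 53 is near that share. Among 15 further relatives of the family 8 were tested, and 1 was under an unadjusted p of 0.05 at 3 months, against 6.8% of all genes. Over all 6 lists it was 4 of 53 at 3 months, near that share. For genotype at 6 months it was 0 of 53 (1.22% of all genes) and for age in WT 4 of 53 (7.44%). For age in KO it was 8 of 53 (6.48%). The relative under that p at 3 months was Bnip3l, a mitophagy receptor gene. It had 171, 158 and 121 FPKM for WT and 116, 92.2 and 107 for KO (log2 difference -0.50, limma adjusted p = 0.73). Its paralogue Bnip3 was the most abundant relative, from 141 to 684 FPKM. Bcl2l12 ranged from 10.03 to 22.1 FPKM, Bcl2l13 from 1.68 to 8.96, Bcl2l2 (BCL-W) from 0.131 to 6.02 and the BH3-only gene Bik from 0 to 2.75. Of the BH3-only genes Bmf and Hrk, named outside the rule after their values were seen, no library reached 1 FPKM. Pmaip1 (NOXA), named likewise, reached it in 1 library.

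Downstream of the membrane, Cycs, which encodes somatic cytochrome c, lay between 223 and 664 FPKM, and the caspase genes Casp6 and Casp8 between 48.0 and 131 and between 11.9 and 26.9. Of the 10 apoptosome and caspase genes, 5 lay above and 5 below 0 at 3 months, where 51.2% of all genes lay above, and 1 had an unadjusted p under 0.05 (6.8% of all genes). This was Casp6, an executioner caspase gene, at 58.9, 94.4 and 83.5 FPKM in 3-month WT and 110.4, 130 and 131 in 3-month KO, groups that did not overlap (log2 difference 0.67, SE 0.27, limma adjusted p = 0.714). In 6-month KO Casp6 stood at 48.0, 61.1 and 87.9 FPKM, again not overlapping with 3-month KO (-0.94, limma adjusted p = 0.745). Of 9 mitochondrial release and channel genes 6 lay above and 3 below 0 at 3 months with 0 at an unadjusted p under 0.05. Their most abundant members were the channel genes Vdac3 (398 to 685 FPKM) and Vdac2 (201 to 336) and the IAP antagonist gene Diablo (94.8 to 182).

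Of 7 genes on the caspase inhibitor list, 3 lay above and 4 below 0 at 3 months. Of 8 genes on the death receptor list, which holds receptors and their signalling partners, 6 lay above and 2 below. Both lists had 0 genes at an unadjusted p under 0.05. The most abundant genes on the caspase inhibitor list were Birc5, which encodes survivin (75.2 to 495 FPKM), Faim (53.8 to 129) and Birc2 (3.76 to 22.5). In the death receptor list they were Cradd (7.90 to 32.4), Tnfrsf1a (4.54 to 19.9) and Tradd (3.51 to 10.02). The receptor gene Fas, named after its values were seen, reached 1 FPKM in 3 libraries. Of 11 regulators upstream of the family, 4 lay above and 7 below 0 at 3 months, and 2 were lower at an unadjusted p under 0.05 (51.2% and 6.8% of all genes lay above 0 and under that p). These were Mdm2 and Pim1, named after their values were seen. Mdm2, the p53 ubiquitin ligase gene, stood at 44.4, 37.7 and 16.1 FPKM in 3-month WT and 12.7, 18.5 and 13.01 in KO (-1.01, limma adjusted p = 0.69). Like Mcl1, it was highest in 3-month WT libraries 1 and 2. Pim1, whose kinase phosphorylates BAD, stood at 5.91, 5.46 and 2.22 FPKM in 3-month WT and at 0, 1.42 and 2.07 in KO (-1.43, limma adjusted p = 0.69). Medians of the 6 lists at 3 months ran from -0.18 to 0.28, against 0.012 for all genes.

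The genes most like Bax across the 12 libraries on log2(FPKM + 1) were Atf7ip2 (Pearson r 0.94), Top2a (0.93), the gene of a topoisomerase of dividing cells, and Inhbb (0.90), which encodes an activin and inhibin subunit. This is a description over 12 libraries that share their scale and their content of other cells.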

How the data were processed

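Transcripts of 100 cumulus cells per mouse were measured by Smart-Seq2 and Nextera XT with 75 bp paired reads, per the labels' protocols. The authors deposited 1 table of FPKM values, for which the submitters' processing notes name GRCm38/mm10, Cufflinks 1.2.1, TopHat2 2.0.10, Bowtie2 2.1.0, SAMtools 0.1.18, FastQC and cutadapt. The sources used here do not give the annotation, and 27 row names had turned into dates. Counts were not used here, so no counting error is given. All library columns matched a label (0 unused), and none of 66 pairs of libraries was identical.

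The 11196 genes that reached FPKM 1 in 3 or more libraries were tested as log2(FPKM + 1) with limma 3.58.1 in R 4.3.3. The model had 4 group means (8 residual and 3.9 prior degrees of freedom, eBayes with trend). P-values are 2-sided, adjusted by Benjamini and Hochberg over all genes tested, threshold 0.05, in 6 comparisons. Fold changes on this scale understate those of low genes. Replicates are separate mice, per the labels. Depth comes from the spacing of FPKM under 0.2 (234 to 1391 genes per pair of libraries), all 66 pairs within 0.1 log2 of the fit. Coordinates are from GENCODE M21. Python 3.11.15, pandas 2.3.3 and matplotlib 3.10.9 were also used.

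The members, lists, cell markers and the 3 libraries left out were chosen with earlier results of these data known. Named genes were the 10 members, relatives with a mean of at least 1 FPKM, the 3 highest of each of 4 pathway lists, and the 3 genes most like the highest member. Genes named outside this rule, after their values were seen, are Bmf, Hrk, Pmaip1, Bcl2a1a, Bcl2l15, Fas, Mdm2, Pim1, Lyz2, Hbb-b1 and Hba-a1. The cell markers Inhba, Foxl2, Krt8, Krt18 and Egfl7 were named likewise. Alternatives were another pseudocount, filters, scaling, array weights, a replicate block and fewer libraries. Same-numbered libraries deviated together for KO against WT at 6 months (correlations 0.158, 0.373 and 0.465) and for 6 against 3 months in KO (0.114, 0.394 and 0.653). All exceed 0.1, the level set here for counting numbers as pairs, which the labels do not state. In both comparisons, however, 6-month KO library 1 deviated most like library 2 of the other group. Pairing by number is therefore not established, and the main model did not use it. Libraries numbered 3 share high markers of other cells, and their part in these correlations was not tested. In the comparisons of genotype at 3 months and of age in WT, not all such correlations exceeded 0.1.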

Additional observations from a re-analysis of the deposited data

How the results depend on the processing

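Counts of members called were 0 under all 106 alternative fits. Of 836 alternative member differences, 760 kept their direction, 76 changed sign and none was called. With the replicate block 0 members were called in every comparison, and Bid at 3 months had an adjusted p of 0.439 in limma. Deviations of same-numbered libraries correlated by 0.095, -0.019 and 0.205 (genotype at 3 months) and by 0.032, 0.03 and 0.278 (age in WT).

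Rescaling without small RNA moved the median of all genes from 0.012 to 0.124 at 3 months and from 0.01 to -0.13 for the difference of effects. It gave Bad -0.02 for 6 against 3 months in KO, Bcl2l11 0.009 for age in WT, Bok 0.088 at 3 months and Mcl1 -0.017 at 6 months. Quantile normalization gave Bcl2l11 0.101 for the difference of effects, Bok 0.006 at 3 months and Mcl1 -0.08 at 6 months. Array weights gave Bad -0.153, Bcl2l11 0.298 and Bok 0.32 for age in KO, Bcl2l11 0.132 and Bid -0.158 for age in WT, Bcl2l11 0.166 for the difference of effects, Bok 0.109 at 3 months and Mcl1 -0.299 at 6 months.

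A further fit left out KO library 3 of both ages and WT library 3 of 6 months, and kept the also marker-rich WT library 3 of 3 months. In it Bad was -0.198, Bcl2l11 0.293 and Bok 0.236 for age in KO. For age in WT Bcl2l11 was 0.052 and Bok 0.086, and for the difference of effects Bcl2l11 was 0.241. Bax was 0.174 and Bok 0.261 at 3 months, Mcl1 -0.192 at 6 months and Bax 0.063 over both ages. Without library 3 of all 4 groups, Bad was -0.198, Bcl2l11 0.293 and Bok 0.236 for age in KO and Bcl2l11 0.444 for the difference of effects. Bax was then 0.151 and Bok 0.164 at 3 months, Mcl1 -0.192 at 6 months and Bax 0.052 over both ages. The cause was not tested.

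Leaving out 1 library at a time gave these lowest and highest values where a sign changed. For genotype at 3 months Bax ran from -0.405 to 0.174 and Bok from -0.254 to 0.261. At 6 months Bcl2 ran from -0.019 to 1.448, Bok from -0.303 to 0.871 and Mcl1 from -0.187 to 0.183, and over both ages Bok from -0.177 to 0.41. For the difference of effects Bax ran from -0.401 to 0.178, Bcl2 from -1.143 to 0.323, Bcl2l11 from -0.534 to 0.534 and Bok from -0.253 to 0.921. For age in WT Bcl2l11 ran from -0.364 to 0.386, Bid from -0.113 to 0.594 and Bok from -0.696 to 0.086. For age in KO Bad ran from -0.205 to 0.223, Bax from -0.181 to 0.398, Bcl2 from -0.812 to 0.655, Bcl2l11 from -0.467 to 0.444, Bok from -0.547 to 0.549 and Mcl1 from -0.164 to 0.255. With no change of sign, some other values moved by over 1.5 times over all alternatives. For age in WT Bad ran from 0.432 to 1.061, Bax from 0.183 to 0.414, Bcl2l1 from 0.158 to 0.947 and Mcl1 from -1.101 to -0.485, and for age in KO Bcl2l1 from -1.132 to -0.522. For the difference of effects Mcl1 ran from 0.558 to 1.174, and at 3 months Mcl1 from -1.338 to -0.609 and Bcl2 from 0.394 to 1.871. At 6 months Bcl2l1 ran from -0.711 to -0.053, Bcl2l11 from -1.308 to -0.076 and Bad from 0.014 to 0.442, and at 3 months Bcl2l11 from -0.884 to -0.134. Where an arm kept 1 library or 2, it was assumed to vary like the other groups. For the members that averaged under 1 FPKM no limit of detection was estimated.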

Other observations

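The relatives of the family given here were chosen after their values were seen. Bcl2l10, an oocyte survival gene, stood at 49.3 FPKM in 6-month KO library 3, where the 8 oocyte markers summed to 189 FPKM, and between 0.823 and 8.52 in the other 11. Bcl2a1b, a leukocyte survival gene, reached 5.58 and 9.75 FPKM in KO library 3 at 3 and 6 months and 7.001 in WT library 3 at 6 months, against 1.203 or less in the other 9. Lyz2, a macrophage lysozyme gene, reached 397 FPKM at most, in 6-month KO library 3. Bcl2a1b was listed at 0 in WT library 3 at 3 months, where blood and leukocyte markers summed to 741 FPKM. Of that sum the haemoglobin genes Hbb-b1 and Hba-a1 held 448.5 and 282.8 FPKM, and every other marker of the list held 4.72 or less. Bcl2a1a, a paralogue of Bcl2a1b, was listed at 7.93 FPKM in 6-month KO library 3 and at 0 in the other 11, and reads of these near-identical copies may not be told apart. Bcl2l15 stood at 7.66 FPKM in the same library and at 0.109 or less elsewhere. The part of other cells in these levels was not tested.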
